A study of Mus musculus with 33 samples.

Results

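Mouse bone marrow cells sorted as CD3e T cells were compared with bone marrow for which the labels name no sort (labelled BM, whole marrow here), across all genes of the deposited read count table. The comparison uses 6 of the 33 libraries of the series, 3 of CD3e T cells and 3 of BM, taken by their labels. The comparison itself was chosen with earlier results of these data known. The series sequenced polyadenylated RNA of 11 bone marrow populations, from long-term stem cells to mature cells, to ask how epigenetic regulation bears on the fate of hematopoietic stem cells. Per the labels, mature cells were stained with antibodies and sorted on a flow cytometer, RNA was taken up in TRIzol, and libraries were made with a TruePrep kit. The strain, genotype, age and sex of the mice, the number of mice behind a library, the gates of the CD3e sort and any treatment shared by the groups are not given in the sources used here. What distinguishes the groups in the labels is therefore the CD3e sort alone.

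CD3e is the epsilon chain of the CD3 complex, which together with CD3 gamma, delta and zeta carries the signal of the T cell receptor into the cell. In bone marrow, T cells are a minority among neutrophils, red cell precursors and B lineage cells, and many of them are antigen-experienced cells held in the marrow niche. NK cells lack the rearranged receptor but share the zeta chain and most of the cytotoxic machinery with T cells. Plasma cells, which secrete antibody, and basophils, which carry granules and the high-affinity receptor for immunoglobulin E, also reside in or leave from the marrow. A count table of a sorted fraction therefore shows both the intended cells and whatever else the sort kept.

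The 6 libraries held 11997186 to 25025642 counts each. Levels are TMM-scaled CPM, the counts of a gene per 1e+06 counts of its library after correction by the trimmed-mean (TMM) factor of that library, and differences come from the quasi-likelihood test of edgeR over all 20464 genes tested, with Benjamini-Hochberg adjustment and 0.05 as the threshold. The 10 most abundant genes took 9.25% to 9.38% of the counts of a CD3e T cell library and 29.7% to 30.2% of those of a BM library, and the scaling factors were 1.11 in CD3e T cells and 0.724 to 0.731 in BM. Nothing in the labels says that the libraries of a population came from separate animals, and the common coefficient of variation between libraries was 2.67%, so the p-values measure a spread that may be technical. In bulk libraries, fewer cells of a type and less RNA of that type per cell cannot be told apart. The strand setting of the counting is not given in the sources used here, so genes with an antisense partner and near-identical copies (Trbc1 and Trbc2, Hba-a1 and Hba-a2, the Ear, Klra and Hspa1 genes, receptor segments) carry an uncertainty that the errors do not include.

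Most genes differed. In CD3e T cells 7304 genes were higher (35.7% of those tested) and 7543 were lower (36.9%), 5617 did not pass the test, and the median log2 fold change over all genes was -0.04. Of the higher genes 3262 rose by 2-fold or more (15.9%), and of the lower genes 4520 fell by as much (22.1%). At 10-fold or more, 637 genes were higher and 1106 lower. The higher genes made up 49.2% of those that passed. Scaling by library size alone, which ignores how much of a library a few genes take up, moved the median by 0.57 on the log2 scale, to 11089 higher and 4388 lower genes (71.6% higher), so small differences are relative to the scaling used. Against this background a gene's call alone says little, and the size of the difference carries the description. Counts of list members below are to be read beside these shares of 35.7% higher and 36.9% lower. The share of all genes whose groups did not overlap was not counted. Lack of overlap alone says little too, since it held for 36 of 40 secretory pathway genes, whose median log2 fold change was -0.08.

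**Figure D1:**
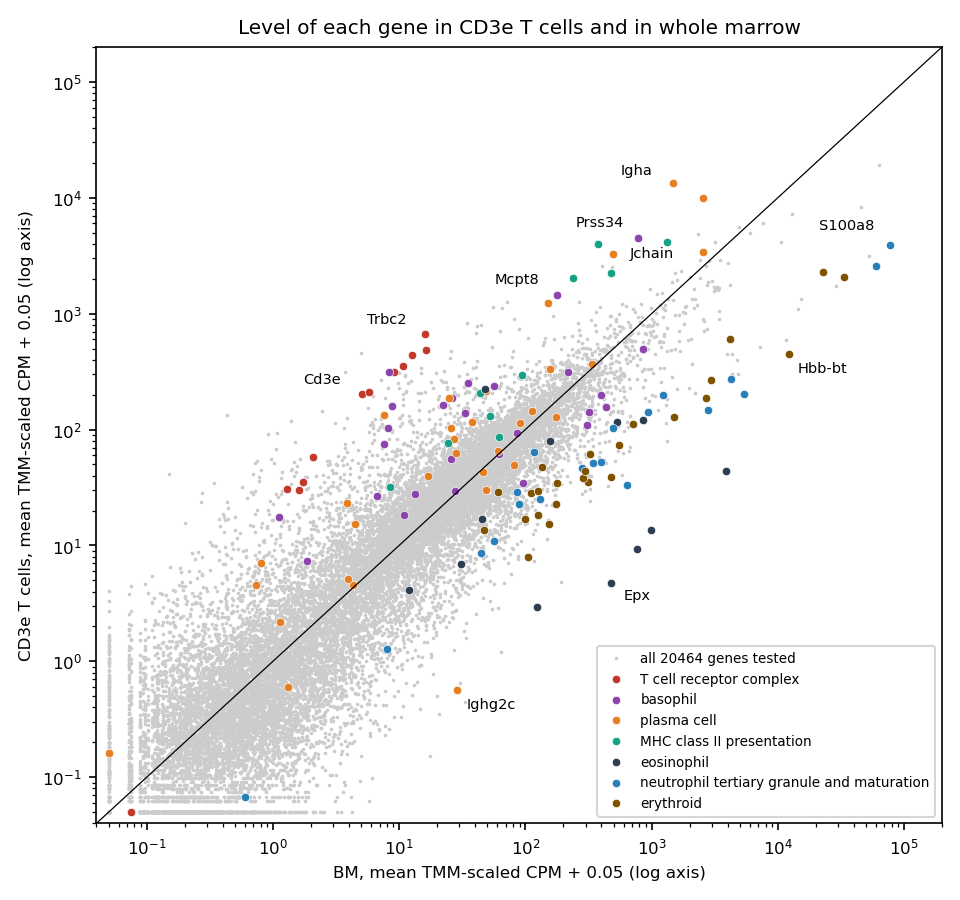
Mean TMM-scaled CPM of all 20464 genes tested in CD3e T cells (vertical axis) against BM (horizontal axis), both on log axes after adding 0.05 CPM, with the line of equal level and the members of 7 gene lists in colour. T cell receptor genes, Igha, Prss34 and Mcpt8 lie above the line, and neutrophil, erythroid and most eosinophil genes lie below it.

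The gene of the sort marker itself separated the groups. Cd3e (ENSMUSG00000032093.8, chromosome 9) stood at 200.9, 199.3 and 206.0 CPM in the 3 CD3e T cell libraries and at 4.22, 5.42 and 5.34 CPM in the 3 BM libraries. All 3 sorted libraries were above all 3 marrow libraries, and the spread within a group was small beside the gap. The log2 fold change was 5.31 ± 0.066 (SE, n = 3 per group), a 39.6-fold difference (edgeR quasi-likelihood test, adjusted p = 5.07e-197).

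Cd3e lies beside Cd3d and Cd3g, the genes of the delta and gamma chains, on chromosome 9. The promoter windows of the 3 genes are shown because these genes moved together. They run from 250 bases before to 50 bases after the annotated start (RefSeq, GRCm38.p6) and were searched on both strands for the letters GGAAGT, a form of the ETS site, TGTGGT, a form of the RUNX site, and CACCTG, an E-box that E proteins can bind. Matches are in capitals, and an ETS match on the other strand reads ACTTCC here.
Cd3e (chr9:45009562-45009861, minus strand): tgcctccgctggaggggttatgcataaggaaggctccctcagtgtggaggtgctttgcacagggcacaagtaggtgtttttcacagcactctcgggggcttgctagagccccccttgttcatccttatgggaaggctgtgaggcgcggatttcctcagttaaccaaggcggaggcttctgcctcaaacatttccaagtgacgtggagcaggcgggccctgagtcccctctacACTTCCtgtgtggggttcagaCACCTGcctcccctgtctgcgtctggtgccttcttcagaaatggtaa
Cd3d (chr9:44981536-44981835, plus strand): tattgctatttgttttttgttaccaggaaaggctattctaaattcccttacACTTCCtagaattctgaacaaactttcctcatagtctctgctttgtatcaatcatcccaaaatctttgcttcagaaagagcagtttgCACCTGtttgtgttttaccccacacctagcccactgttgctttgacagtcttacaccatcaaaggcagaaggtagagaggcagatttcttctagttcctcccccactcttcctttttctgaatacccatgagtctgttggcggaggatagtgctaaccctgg
Cd3g (chr9:44980382-44980681, minus strand): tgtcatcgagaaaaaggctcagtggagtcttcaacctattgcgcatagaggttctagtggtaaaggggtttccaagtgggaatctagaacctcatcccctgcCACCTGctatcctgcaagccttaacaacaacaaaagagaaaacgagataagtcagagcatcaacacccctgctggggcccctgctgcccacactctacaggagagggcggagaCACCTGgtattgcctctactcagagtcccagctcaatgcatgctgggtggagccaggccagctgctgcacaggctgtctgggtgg
Cd3e and Cd3d each held 1 ETS match and 1 E-box match, Cd3g held 2 E-box matches, and none of the 3 windows held the RUNX letters. In Cd3e the ETS match lay at bases 233 to 238 of the window and the E-box match at 254 to 259. Among all 32851 windows, 23.8% held the ETS letters, 20.2% the E-box letters and 16.8% the RUNX letters, so each match is a common one and describes letters only.

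The other chains of the receptor followed. Cd3d was at 481.7, 486.1 and 488.6 CPM in CD3e T cells and at 16.8, 16.4 and 15.3 CPM in BM, and Cd3g was at 444.5, 433.8 and 429.8 CPM against 13.8, 10.7 and 13.04 CPM. Neither gene's groups overlapped, and the differences were 30.2-fold and 35.1-fold. Cd247, which encodes the zeta chain and is the longest signalling tail of the complex, was 36.2-fold higher (209 ± 2.81 against 5.71 ± 0.82 CPM, SD). The constant genes of the alpha and beta chains that contact antigen rose alike, Trac by 34.2-fold, Trbc1 by 32.7-fold and Trbc2 by 41.9-fold. The constant genes of gamma-delta receptors rose by less, Trdc by 19.6-fold and Tcrg-C1, Tcrg-C2 and Tcrg-C4 by 23.4-fold, 28.3-fold and 21.0-fold. Whether the gamma-delta genes differ from the alpha-beta genes in fold was not tested.

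Of the 12 receptor complex genes tested 11 were higher and none was lower, with a median log2 fold change of 4.98. The exception, Ptcra, encodes the surrogate alpha chain of developing thymocytes and had 0 counts in the 3 CD3e T cell libraries together and 1 in BM. Per kilobase of exon, Trbc2 reached 965 ± 9.5 CPM and Trac 334 ± 5.5 CPM in CD3e T cells, and Trdc 7.78 ± 0.55 CPM. On this length-adjusted scale the beta and alpha constant genes stood far above the delta constant gene in the sorted cells. All genes of the T cell receptor loci together took 0.233% ± 0.0013 of the counts in CD3e T cells and 0.00483% ± 0.00011 in BM (SD, n = 3).

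The signalling genes downstream of the receptor rose without exception, 22 of 22, with a median log2 fold change of 4.03. Lck, the kinase that phosphorylates the CD3 tails, was at 838 ± 15.3 CPM against 34.2 ± 0.44 CPM, a 24.5-fold difference. Zap70, the kinase that binds the phosphorylated tails, and Lat, the scaffold it phosphorylates, were 25.7-fold and 26.9-fold higher. Trat1, an adaptor of the receptor complex, was 48.8-fold higher. Themis, which acts in thymocyte selection, and Cd5 and Cd6, which restrain receptor signals, were 28.3-fold, 31.3-fold and 31.1-fold higher. The smallest difference of the list was at Lcp2 (2.20-fold), an adaptor also used in platelets and myeloid cells, with Ubash3a at 3.42-fold and Ptpn22 at 3.91-fold.

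Of 18 transcription factors of the T lineage 15 were higher, 1 was lower and 2 did not pass the test, with a median log2 fold change of 2.59. Tcf7 and Lef1, the factors of naive and long-lived T cells, were 26.1-fold and 13.2-fold higher, Bcl11b, which holds T identity, 18.7-fold, and Gata3, needed for T cell development and type 2 responses, 13.8-fold. Tbx21 and Eomes, the factors of type 1 and cytotoxic cells, were 14.9-fold and 10.3-fold higher. Zbtb7b, which directs the CD4 fate but is not restricted to T cells, was 1.44-fold lower, a call that was lost when libraries were scaled by their size alone. Zbtb16, the factor of innate-like T cells, was at 8.64 ± 0.42 and 7.99 ± 0.89 CPM, a difference that did not pass (edgeR quasi-likelihood test, adjusted p = 0.292). Bach2, which B cells also express, was at 33.9 CPM and 33.4 CPM and did not pass either.

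Genes of both co-receptors were higher. Cd4 was at 143.4, 147.2 and 142.4 CPM in CD3e T cells and at 16.2, 18.4 and 17.3 CPM in BM, 8.29-fold higher, while Cd8b1, the beta chain of CD8, was at 310.7, 316.5 and 314.7 CPM against 9.36, 9.92 and 9.88 CPM, 32.1-fold higher. The groups did not overlap for either gene. Cd8a was 27.6-fold higher. Whether the rises of Cd4 and the CD8 genes differ was not tested, and Cd4 is also carried by some dendritic cells and macrophages of the mouse. Across the 11 populations Cd4 was highest in B220+ cells, whereas Cd8b1 was highest in CD3e T cells.

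Several named genes are known from regulatory T cells, for which no list was made. Foxp3, their lineage factor, was at 36.4, 41.0 and 38.9 CPM against 0.571, 1.01 and 0.593 CPM, with no overlap and a 52.6-fold difference. Ctla4, the inhibitory receptor they carry, was 44.3-fold higher, and Izumo1r, which encodes folate receptor 4 of regulatory cells, was 64.2-fold higher. Tigit and Tnfrsf4, receptors of regulatory and activated cells, were 26.9-fold and 22.8-fold higher, and Il2ra, the inducible interleukin-2 receptor chain that progenitors and basophils can also carry, was 2.28-fold higher.

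The largest rise by rule was that of Cd40lg, the helper signal to B cells and dendritic cells, at 28.7, 29.2 and 27.8 CPM against 0.343, 0 and 0.329 CPM. The BM value rests on 8 counts over 3 libraries, with none in 1 of them, and the fitted difference was 128-fold. Ifng, the effector cytokine of type 1 T cells and NK cells, followed at 22.4, 24.4 and 23.8 CPM against 0.114, 0.0775 and 0.461 CPM (9 counts in BM), 94.3-fold higher. The groups did not overlap for either gene. F2rl1, a protease-activated receptor, and Dapl1 completed the 5 largest rises with Izumo1r, at 15.6 and 32.1 CPM in CD3e T cells.

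Of 32 surface and subset genes 30 were higher and 2 were lower, with a median log2 fold change of 3.98. Ccr7 and S1pr1, which guide naive and central memory cells to and out of lymph nodes, were 11.9-fold and 8.90-fold higher, and Il7r, the survival receptor of resting T cells, 4.74-fold. Il2rb, the interleukin-2 and interleukin-15 receptor chain of memory and NK cells, reached 1135 ± 9.6 CPM and was 20.6-fold higher. Cxcr3 and Cxcr6, chemokine receptors of effector and resident memory cells, were 20.7-fold and 21.5-fold higher. The 2 lower genes were Cd44 (2.31-fold) and Ly6c2 (2.12-fold), which mark memory T cells and are also expressed by myeloid cells. The part of myeloid cells in these 2 falls was not tested. The 6 Gimap genes of the list, GTPases of lymphocyte survival, rose by 11.1-fold to 17.1-fold.

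Over the 4 T cell lists, 78 of 84 genes were higher, 3 lower and 3 did not pass, beside 35.7% and 36.9% over all genes. At least 16-fold differences were found for 41 of them, 23 lay between 4-fold and 16-fold in size, and 20 below 4-fold in size. Among the 11 populations 64 of the 84 were highest in CD3e T cells. The label of the sorted cells therefore matches its T cell markers in the data.

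**Figure D2:**
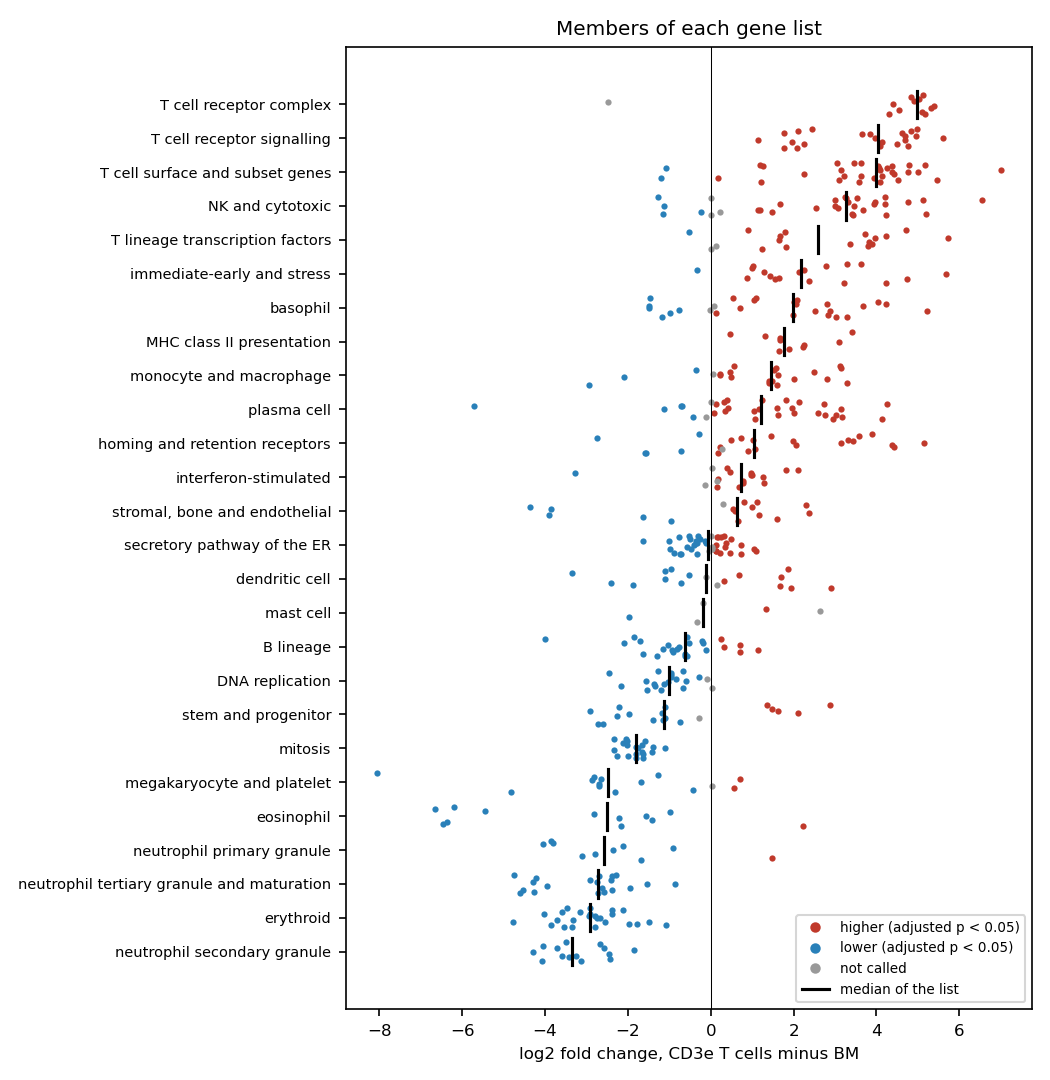
Log2 fold change of CD3e T cells minus BM for each tested member of 26 gene lists, ordered by their medians (black bars), with members higher, lower or not passing the edgeR test in red, blue and grey. The T cell receptor complex is at the top with a median of 4.98 and the secondary granule genes of neutrophils are at the bottom with a median of -3.34.

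NK and cytotoxic genes were higher as well. Of 32 genes 25 were higher, 4 lower and 3 did not pass, with a median log2 fold change of 3.26, and 23 were highest in CD3e T cells among the 11 populations. After Ifng, the largest rises were of genes that T cells and NK cells share, Xcl1, a chemokine for cross-presenting dendritic cells, by 35.0-fold, Gzmk by 36.5-fold, Klrg1, an inhibitory receptor of terminal effectors, by 27.3-fold, Ccl5 by 18.8-fold, Fasl by 18.5-fold and Ctsw by 18.3-fold. Prf1, the pore protein, and Gzmb, its companion protease, were 9.67-fold and 7.93-fold higher. Ncr1, which encodes the NK cell receptor NKp46, was at 39.8 ± 2.57 against 12.4 ± 0.83 CPM, 3.17-fold higher. Klrb1c, the NK1.1 antigen gene that NKT cells also carry, was at 96.1 ± 0.80 against 8.74 ± 0.62 CPM, 10.96-fold higher. The inhibitory Ly49 genes Klra1 and Klra7 were 15.8-fold and 15.4-fold higher.

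Gzma, a granzyme of NK cells, was at 12.6, 11.6 and 12.5 CPM in CD3e T cells and at 13.01, 10.4 and 13.2 CPM in BM, and its groups overlapped. Il18rap was at 139 and 138 CPM, and neither gene passed the test. Tyrobp, the adaptor of activating NK and myeloid receptors, was 2.23-fold lower. It is among the 4 lower genes of the NK and cytotoxic list. Of these, 3 fell by 2-fold or more, and the lowest log2 fold change was -1.27. Among the ITAM adaptors, whose tyrosine motifs couple receptors to kinases, the 4 CD3 genes rose. Hcst, the adaptor of the NKG2D receptor, was counted in the same list although its motif is not an ITAM, and rose 4.25-fold. Fcer1g, the adaptor of Fc receptors, was 1.76-fold lower, and the groups of the B cell receptor adaptor Cd79a stood at 409 ± 5.95 against 625 ± 8.20 CPM, 1.53-fold lower, a call that was lost when libraries were scaled by their size alone. In all, 5 of the 9 genes of this list were higher, Hcst included, and 4 lower.

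**Figure D3:**
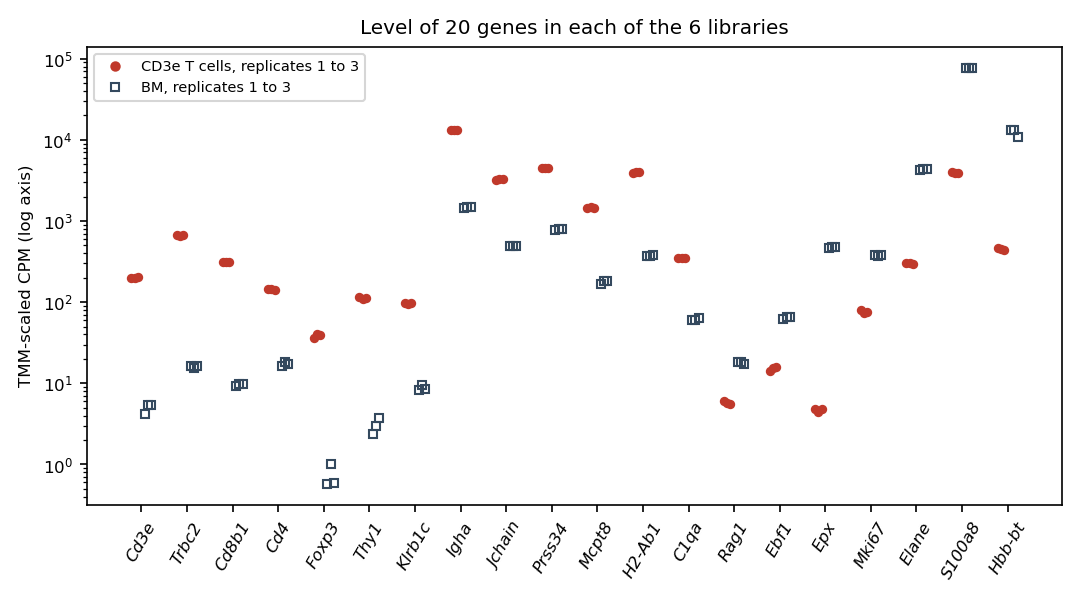
TMM-scaled CPM on a log axis of 20 genes in each of the 3 CD3e T cell libraries (filled circles) and 3 BM libraries (open squares). The groups do not overlap for any of these 20 chosen genes, but the share over all genes was not counted. Cd3e sits at 199 to 206 CPM in the first group and 4.22 to 5.42 CPM in the second.

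Basophil genes rose beside the T cell genes. Prss34 (ENSMUSG00000056399.3, chromosome 17), a tryptase-like protease of basophils, stood at 4518, 4525 and 4528 CPM in CD3e T cells and at 775.4, 787.9 and 798.3 CPM in BM. The groups did not overlap, and the log2 fold change was 2.52 ± 0.058 (SE), a 5.74-fold difference (edgeR quasi-likelihood test, adjusted p = 2.61e-22). Mcpt8, the protease that defines mouse basophils, was at 1443, 1470 and 1458 CPM against 168.7, 183.5 and 182.5 CPM, 8.14-fold higher. The promoter window of Prss34 is shown because its gene had the highest level in CPM among the basophil genes. It was searched on both strands for AGATAA, a form of the GATA site, since GATA2 is a factor of basophils and mast cells.
Prss34 (chr17:25298144-25298443, plus strand): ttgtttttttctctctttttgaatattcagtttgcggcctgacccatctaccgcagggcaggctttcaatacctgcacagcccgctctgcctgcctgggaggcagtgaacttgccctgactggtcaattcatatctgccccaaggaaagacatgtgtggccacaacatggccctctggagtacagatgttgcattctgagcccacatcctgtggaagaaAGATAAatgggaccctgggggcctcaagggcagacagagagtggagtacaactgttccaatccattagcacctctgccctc
The capitals mark 1 match, at bases 220 to 225, and 11.2% of all windows held these letters. The window of Mcpt8 held none.

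Of 27 basophil genes tested 19 were higher, 6 lower and 2 did not pass, with a median log2 fold change of 1.98. Cd200r3, an activating receptor of basophils and mast cells, was 12.8-fold higher, Cyp11a1 9.85-fold, Gata2 7.34-fold, Cpa3, a granule carboxypeptidase, 7.16-fold, and Fcer1a and Ms4a2, the alpha and beta chains of the immunoglobulin E receptor, 7.03-fold and 4.20-fold. The chemokine genes Ccl3 and Ccl4, which activated T and NK cells also make, were 18.7-fold and 37.5-fold higher. Il4, which basophils and type 2 T cells both make, was at 7.26 CPM against 1.83 CPM. The lower genes, Hdc, Cd63, Alox5, Ptgs1, Cd9 and Lilr4b, fell by 1.71-fold to 2.82-fold. Members of either direction could be highest in another population, such as Alox5 in CD11b+ cells (969 CPM) and Ccl3 in CMP (398 CPM). The part of other cells in these rises and falls was not tested. The basophil list took 1.04% ± 0.0037 of the counts in CD3e T cells and 0.292% ± 0.0036 in BM.

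Mast cells, which share the immunoglobulin E receptor with basophils, were hardly seen. The defining proteases Mcpt1 and Tpsab1 and the receptors Mrgprb1 and Mrgprb2 had no count in any of the 6 libraries, Mcpt4 and Mcpt2 had none in CD3e T cells, and 5 of the 12 listed genes could be tested, of which 3 did not pass. Kit, the stem cell factor receptor of mast cells and progenitors, was 3.95-fold lower, and Hpgds, a prostaglandin synthase, 2.51-fold higher.

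Eosinophil genes moved the other way, with 11 of 12 lower and 1 higher and a median log2 fold change of -2.50. Epx, the eosinophil peroxidase, was at 4.80, 4.48 and 4.85 CPM in CD3e T cells and at 467.7, 478.7 and 475.4 CPM in BM. The groups did not overlap, and the difference was 101-fold. Prg2, the major basic protein of the granule, was 88.6-fold lower and Prg3, its paralog, 43.5-fold. The eosinophil-associated ribonuclease genes Ear1 and Ear6 were 73.5-fold and 82.1-fold lower, and Ear10 was at 0.102 ± 0.088 against 17.5 ± 1.39 CPM. Adgre4, a receptor that patrolling monocytes also carry, was the member that rose, by 4.66-fold.

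Antibody genes took a larger share of the sorted libraries than of whole marrow. Igha (ENSMUSG00000095079.7, chromosome 12), the heavy constant gene of immunoglobulin A, stood at 13355, 13375 and 13218 CPM in CD3e T cells and at 1459, 1491 and 1502 CPM in BM. The groups did not overlap, and the log2 fold change was 3.17 ± 0.10 (SE), an 8.97-fold difference (edgeR quasi-likelihood test, adjusted p = 3.34e-19). Jchain, which joins immunoglobulin A and M into polymers, was at 3259 ± 20 against 493 ± 5.5 CPM, 6.61-fold higher. Igkc and Iglc1, the kappa and lambda 1 constant genes, were 3.93-fold and 8.12-fold higher. All immunoglobulin genes together took 4.40% ± 0.031 of the counts in CD3e T cells and 0.656% ± 0.0060 in BM.

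The size of the difference varied between classes. Ighm, the class of naive B cells and early plasma cells, was 1.31-fold higher, Ighg1 1.27-fold, Ighg2b 2.11-fold and Ighg3 4.05-fold, whereas Ighg2c was lower by 52.9-fold (0.515 ± 0.15 against 28.5 ± 2.32 CPM). Among the counts on heavy chain constant genes, Igha made up 76.5% ± 0.13 in CD3e T cells and 33.3% ± 0.17 in BM, and Ighm 19.4% ± 0.13 and 57.7% ± 0.23. In B220+ cells Igha made up 5.40% of these counts and in MPP 15.4%.

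Of 32 plasma cell genes 25 were higher, 5 lower and 2 did not pass, with a median log2 fold change of 1.20. The list holds 12 antibody genes (constant genes and Jchain), of which 11 were higher. Among its 20 other genes 14 were higher, 4 lower and 2 did not pass, with a median of 0.72. The 11 include Ighe, which made up 0% of the heavy chain constant counts in BM and 0.00065% ± 0.00026 in CD3e T cells. The 14 include Cd28 (134 against 7.59 CPM), which was also counted with the T cell receptor signalling genes. Tnfrsf17, the survival receptor BCMA, was at 7.02 ± 0.49 against 0.759 ± 0.36 CPM, 8.89-fold higher. Prdm1, the factor that drives plasma cell differentiation and also acts in effector T cells, was 6.01-fold higher, Pim2 7.70-fold, Fcrl5 6.79-fold, Derl3 3.51-fold and Sdc1, which encodes CD138, 2.38-fold. Cd93 and Pou2af1 were 1.63-fold and 1.65-fold lower, calls that were lost when libraries were scaled by their size alone. Of the 5 lower genes of the list, 2 fell by 2-fold or more, Ighg2c and a gene outside the antibody part. Ccr10, the chemokine receptor of immunoglobulin A plasma cells, was 9.87-fold higher. Xbp1, the secretory regulator, was at 366 ± 6.30 against 337 ± 3.22 CPM, 1.09-fold higher. Of the 40 genes of the endoplasmic reticulum secretory pathway 16 were higher, 20 lower and 4 did not pass. Over all genes 35.7% were higher and 36.9% lower. The median log2 fold change of the secretory pathway list was -0.08, and it was positive when libraries were scaled by their size alone.

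B lineage genes were mostly lower. Of 25 genes 20 were lower and 5 higher, with a median log2 fold change of -0.63. Genes of early B cell stages fell, Ebf1, the commitment factor, by 4.27-fold, Rag1 and Rag2, the recombinase, by 3.13-fold and 3.29-fold, and Dntt, which adds bases at the joins, by 2.47-fold. Cd24a, abundant on precursors of B and red cells, was at 300.0 against 4801 CPM. The 5 higher genes were Fcer2a, the low-affinity immunoglobulin E receptor (2.20-fold), Cd22 (1.64-fold), Ighd (1.64-fold), Cd72 (1.26-fold) and Ms4a1, which encodes CD20 (1.20-fold). These are genes of mature B cells, but Cr2, also of mature B cells, was 2.23-fold lower.

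The usage of variable segments was counted as a share of the reads on the segments of 1 locus. The 8 most used heavy chain segments took 42.4% to 43.1% of these counts in CD3e T cells and 39.9% to 40.3% in BM, and in each population the same 8 led in all 3 libraries. Ighv6-3 took 9.25% ± 0.18 in CD3e T cells and 0.642% ± 0.057 in BM, while Ighv1-39 took 0.686% ± 0.023 and 5.01% ± 0.28. On the kappa locus Igkv8-30 took 16.8% ± 0.29 and 5.53% ± 0.36, and Igkv14-126 took 0.0243% ± 0.0086 and 8.005% ± 0.52. The libraries of a population were thus closer to each other than to the other population for these 4 segments, which were picked after their values were seen. The mice behind each library are not given. A difference between the mice used and a difference made by the sort therefore cannot be told apart here, nor for Ighg2c. The 22 beta chain segments of the T cell receptor all had counts in CD3e T cells, led by Trbv12-2 (12.04% ± 0.20), Trbv13-2 (11.6% ± 0.61) and Trbv16 (11.01% ± 0.37). BM held 82 to 155 counts on these segments per library, too few to compare single ones.

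**Figure D4:**
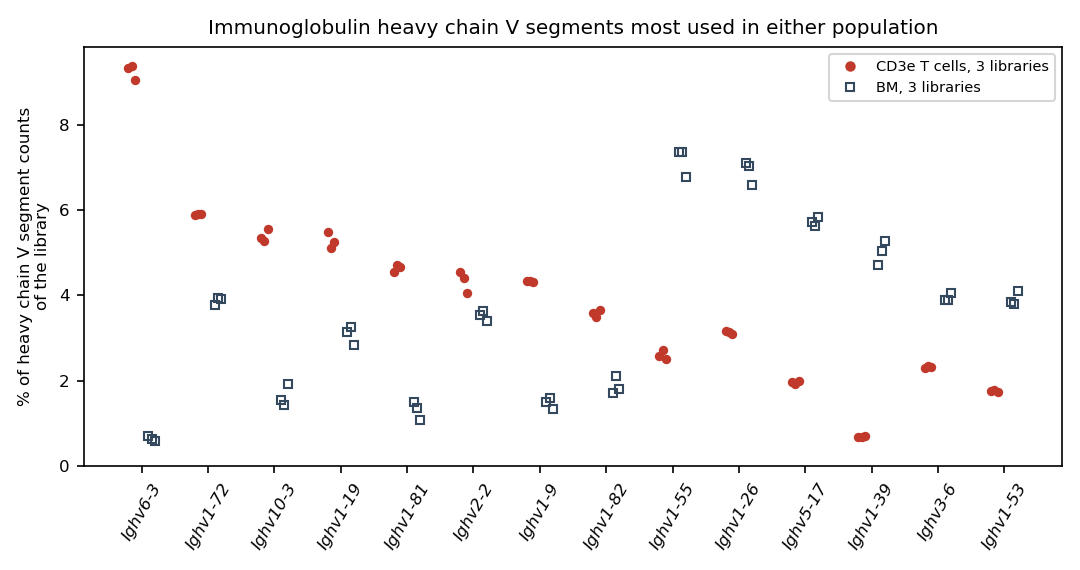
Share of the counts on immunoglobulin heavy chain variable segments taken by each of the 14 segments that were among the 8 most used in either population, in each of the 3 CD3e T cell libraries (filled circles) and 3 BM libraries (open squares). Ighv6-3 is at 9.04% to 9.38% in CD3e T cells and at 0.596% to 0.706% in BM.

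Presentation genes rose together, 10 of 10, with a median log2 fold change of 1.78. H2-Ab1, a chain of the class II molecule that shows peptides to CD4 T cells, was at 3957, 4033 and 4038 CPM in CD3e T cells and at 375.4, 370.8 and 380.1 CPM in BM, with no overlap and a 10.7-fold difference. H2-Eb1 and H2-Aa, further class II chains, were 8.48-fold and 4.74-fold higher, Cd74, the invariant chain, 3.15-fold, and Ciita, the coactivator of these genes, 3.17-fold. Resting mouse T cells do not express class II genes, but the state of the sorted T cells is not given. Which cells of the sorted libraries these transcripts came from was not tested. The promoter windows of H2-Aa and H2-Eb1 are shown because these genes moved together, and were searched on both strands for CTGATTGG, the Y box that the NF-Y complex binds.
H2-Aa (chr17:34287774-34288073, minus strand): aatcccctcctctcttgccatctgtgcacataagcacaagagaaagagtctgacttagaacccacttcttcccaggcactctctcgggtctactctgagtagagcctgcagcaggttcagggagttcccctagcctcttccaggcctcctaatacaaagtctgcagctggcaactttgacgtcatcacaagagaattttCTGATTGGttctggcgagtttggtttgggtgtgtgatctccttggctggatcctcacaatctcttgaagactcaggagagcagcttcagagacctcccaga
H2-Eb1 (chr17:34305617-34305916, plus strand): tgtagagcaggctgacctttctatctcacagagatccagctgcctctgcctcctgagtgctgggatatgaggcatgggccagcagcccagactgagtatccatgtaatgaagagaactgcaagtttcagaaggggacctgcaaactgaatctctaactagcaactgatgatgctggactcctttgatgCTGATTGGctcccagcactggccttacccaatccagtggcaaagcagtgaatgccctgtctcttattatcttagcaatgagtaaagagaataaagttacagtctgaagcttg
Both held 1 match (capitals), at bases 200 to 207 in H2-Aa and 189 to 196 in H2-Eb1, beside 4.1% of all windows. Of the 7 genes of the list that had a window, 3 held a match.

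Cells that carry class II in the marrow are B cells, dendritic cells, monocytes and macrophages, and their genes did not move as 1 group. Of 22 monocyte and macrophage genes 18 were higher, 3 lower and 1 did not pass, with a median log2 fold change of 1.45. C1qa, C1qb and C1qc, the complement genes of resident macrophages, were 5.65-fold, 4.06-fold and 8.76-fold higher. Cd300e, Nr4a1 and Cx3cr1, genes of patrolling monocytes, were 8.90-fold, 9.83-fold and 2.89-fold higher. Nr4a1 is also a member of the immediate-early and stress list, which rose as well. F13a1 and Fn1, genes of classical monocytes and their precursors, were 4.25-fold and 7.69-fold lower, but Ccr2 and Cd14, which classical monocytes also express, were 1.17-fold and 2.81-fold higher. Of 17 dendritic cell genes 7 were higher, 8 lower and 2 did not pass, near the 35.7% higher and 36.9% lower over all genes. Genes of plasmacytoid cells went both ways, with Siglech 5.27-fold lower and Bst2 1.60-fold higher. Itgax, Cd209a and Batf3, of conventional or monocyte-derived cells, were 3.20-fold, 3.67-fold and 7.53-fold higher, while Clec9a, of conventional cells, was at 5.89 against 6.19 CPM and did not pass. Clec9a passed as higher when libraries were scaled by their size alone. The class II list took 1.48% ± 0.00079 of the counts in CD3e T cells and 0.197% ± 0.0010 in BM.

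The summed levels of these lists of other cell types did not overlap between the groups. Lack of overlap says little here too. It held also for the secretory pathway list, at 6830 to 6896 CPM in CD3e T cells against 8250 to 8437 CPM in BM. The dendritic cell list was lower in CD3e T cells as well, at 827 to 851 against 1157 to 1184 CPM. For the basophil list the sum was 9375 to 9422 CPM in CD3e T cells against 3946 to 4076 CPM in BM, for the plasma cell list 33147 to 33810 against 8458 to 8709, for the class II list 13330 to 13345 against 2675 to 2727, and for the monocyte and macrophage list 5126 to 5157 against 3251 to 3341. Their part in the differences of genes that T cells share with these cells was not tested.

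The sort lost the neutrophil genes. All 14 secondary granule genes and all 20 genes of the tertiary granule and of maturation were lower, with median log2 fold changes of -3.34 and -2.72, as were 9 of 10 primary granule genes (median -2.58). The remaining member of the last list, Nkg7, is also a granule gene of T and NK cells and was 2.77-fold higher. S100a8, a subunit of calprotectin and the most abundant of these transcripts, was at 3972, 3961 and 3905 CPM in CD3e T cells and at 77153, 77297 and 75885 CPM in BM, with no overlap and a 19.5-fold difference. Ltf, Ngp and Camp, proteins of the secondary granule, were 16.6-fold, 16.8-fold and 13.1-fold lower, Mpo and Elane, enzymes of the primary granule, 14.0-fold and 14.5-fold, and Mmp8 and Ly6g, of late neutrophils, 18.7-fold and 19.1-fold. Retnlg had the largest fall of these genes, 26.8-fold. The secondary granule list still took 2.02% ± 0.012 of the counts in CD3e T cells, beside 13.3% ± 0.042 in BM.

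Erythroid genes fell too, 25 of 25, with a median log2 fold change of -2.91. Hbb-bs, an adult beta globin gene, was at 2057, 2113 and 2043 CPM against 35843, 33579 and 31224 CPM, 16.2-fold lower with no overlap, and Hbb-bt 27.4-fold lower. Slc4a1, the anion exchanger of the red cell membrane, fell by 14.5-fold and Alas2, the first enzyme of erythroid heme synthesis, by 11.7-fold. Hemoglobin genes took 0.597% ± 0.0036 of the counts in CD3e T cells and 5.28% ± 0.27 in BM.

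Of 14 megakaryocyte and platelet genes 11 were lower, 2 higher and 1 did not pass, with a median log2 fold change of -2.48. Ppbp and Vwf, stored in platelet granules, were 7.05-fold and 6.53-fold lower, while Itga2b, the platelet integrin chain that basophils and mast cells can share, was 1.49-fold higher. Of 18 stem and progenitor genes 12 were lower, 5 higher and 1 did not pass (median -1.13). Cd34 fell by 6.03-fold and Meis1 by 6.55-fold. The 5 higher genes include Gata2, already given with the basophil genes, Ly6a (2.78-fold) and Cd48 (3.07-fold), which lymphocytes express, and Slamf1 and Procr.

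Cell cycle genes were lower in the sorted cells. All 20 mitosis genes were lower, with a median log2 fold change of -1.80, and of 20 DNA replication genes 18 were lower, none was higher and 2 did not pass (median -0.996). Mki67, the proliferation antigen, was at 79.6, 74.0 and 74.8 CPM against 382.8, 375.6 and 384.9 CPM, 5.02-fold lower with no overlap. Rrm2, the ribonucleotide reductase subunit of S phase, fell by 5.48-fold and Top2a by 4.05-fold.

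Immediate-early and stress genes were higher, 17 of 18, with a median log2 fold change of 2.19. These genes are switched on within minutes by receptor signals and by handling of cells. Egr1, Jun and Atf3 were 12.3-fold, 9.38-fold and 18.9-fold higher, and the inducible chaperone gene Hspa1a 50.9-fold (16.9 ± 0.36 against 0.327 ± 0.016 CPM). Whether the staining and sorting that CD3e T cells went through, and that the labels do not give for BM, bears on these genes cannot be told apart from the sort itself. Btg2 was the member that fell, by 1.25-fold, a direction that turned when libraries were scaled by their size alone, which moves all genes upward.

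The leading genes of the comparison were placed in the other 9 populations of the series, as a description. Cd3e was at 202 CPM in CD3e T cells, 9.14 ± 0.58 CPM in B220+ cells, 4.995 ± 0.67 CPM in BM and 2.23 ± 0.075 CPM in CD11b+ cells, and below 0.5 CPM in the 7 stem and progenitor populations. The ranges of these 4 populations did not overlap. Igha was highest in CD3e T cells, followed by MPP (5058 ± 62 CPM), BM and B220+ cells (563 ± 6.3 CPM). Prss34 was highest in CD3e T cells, followed by MPP (3497 ± 59 CPM), CLP (3304 ± 104 CPM) and BM, and the ranges of MPP and CLP did not overlap. H2-Ab1 was higher in CD3e T cells (4009 ± 45 CPM) than in B220+ cells (3246 ± 35 CPM). Cd74, of the same class II list, was lower in CD3e T cells (4194 ± 28 CPM) than in B220+ cells (7349 ± 84 CPM). By contrast Epx was highest in CLP (1356 ± 51 CPM), and CD3e T cells came seventh of the 11. Of the receptor complex list 11 of 12 genes were highest in CD3e T cells. The same held for 6 of 27 of the basophil list and 3 of 10 of the class II list. It held for 7 of 32 of the plasma cell list, Cd28 among them.

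**Figure D5:**
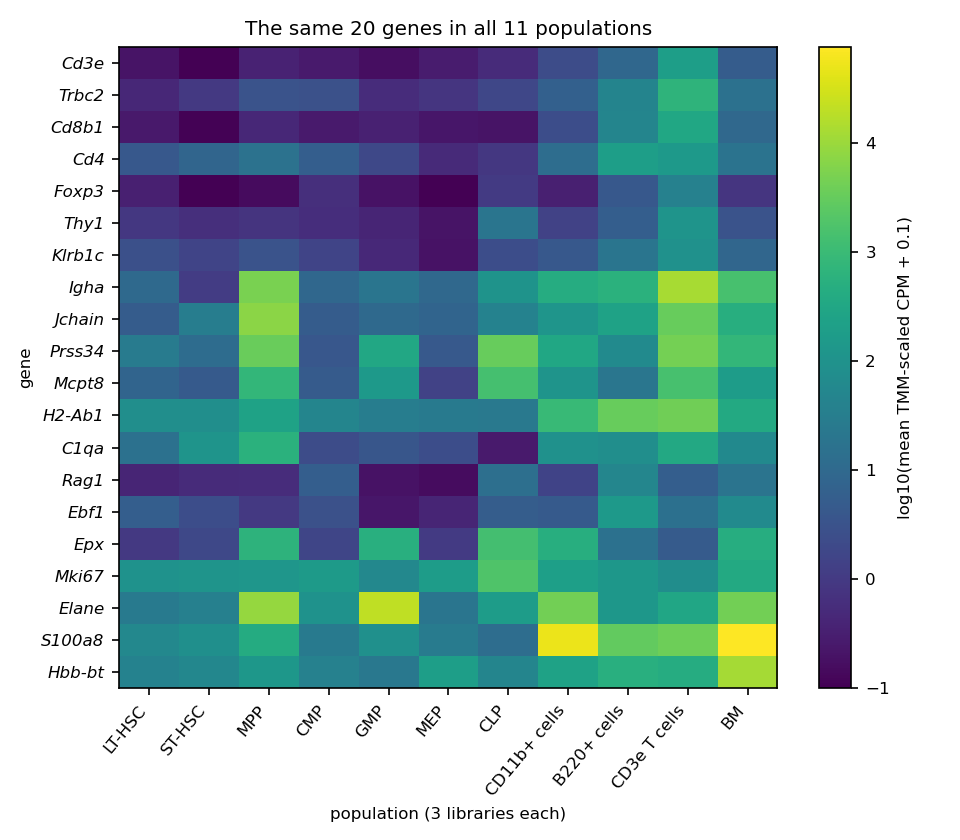
Mean TMM-scaled CPM of 20 genes in the 11 populations (3 libraries each), as the log10 of CPM + 0.1 in colour from dark (low) to yellow (high). The T cell genes of the upper rows except Cd4 are highest in CD3e T cells, Igha and Prss34 are high in CD3e T cells and MPP, and S100a8 and Hbb-bt are highest in BM.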

How the data were processed

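The authors deposited 1 table of raw read counts per gene for the 33 libraries, a count being a whole number of reads. Per the submitters' processing notes, cutadapt, HISAT2, HTSeq and DESeq2 were used with the build mm39. Their versions, the annotation release and the strand setting are not given in the sources used here. Every column matched 1 library by name. Of 56748 gene IDs 52073 matched a symbol in GENCODE M21 (GRCm38), from which exon lengths and chromosomes were taken, and promoter windows came from RefSeq (GRCm38.p6).

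From the deposited counts, genes were filtered by group with filterByExpr, scaled by TMM and fitted with 1 mean per population over all 33 libraries (edgeR 4.0.16 in R 4.3.3, robust quasi-likelihood fit, 22 residual degrees of freedom). That fit gave the standard errors and the p-values, which were adjusted by Benjamini-Hochberg. Shares of counts were taken from the unscaled counts and were not tested. The results were recomputed without the filter, by library size alone, by relative log expression factors, on the 6 libraries alone, with the replicate number as a block, by a test against a 2-fold change, by DESeq2 1.42.0 and by limma-voom (limma 3.58.1) with quality weights, and without each library in turn, and the shares without immunoglobulin and hemoglobin genes.

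The comparison and the gene lists were chosen with earlier results of these data known, so no list is independent support. The lists were sort markers, T cell receptor complex, T cell receptor signalling, T lineage transcription factors, T cell surface and subset genes, NK and cytotoxic, basophil, mast cell, eosinophil, plasma cell, secretory pathway of the endoplasmic reticulum, B lineage, MHC class II presentation, dendritic cell, 3 neutrophil granule lists, monocyte and macrophage, erythroid, megakaryocyte, stem and progenitor, stromal, DNA replication, mitosis, immediate-early and stress, interferon-stimulated, homing and ITAM adaptors. Of 545 entries 544 matched a gene. Genes to be named were the sort markers, all members of the T, NK, basophil, mast cell, eosinophil, plasma cell and ITAM lists, the first 8 members of each other list, and the 15 largest rises and falls among genes that passed the test, reached 10 CPM in the higher group and had groups that did not overlap, leaving out predicted, mitochondrial, ribosomal and segment genes. Further list members, and the variable segments, were named after their values were seen. Intervals and p-values cover the spread between libraries only. Values of a few listed genes are not reported here.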

Additional observations from a re-analysis of the deposited data

How the results depend on the processing

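Scaling by library size alone gave 11089 genes higher and 4388 lower, and 6383 higher and 2853 lower by 2-fold or more. Under it the log2 fold changes of Btg2 (0.28), Zbtb7b (0.083, not passing), Clec9a (0.50) and Gzma (0.61) and the median of the secretory pathway list (0.53) were positive, and Zbtb16, Bach2 and Il18rap passed as higher, by the construction of that scaling. A test against a 2-fold change left 2433 genes higher and 3434 lower. Without immunoglobulin and hemoglobin genes in the denominator, the share of the class II list in CD3e T cells over BM was 7.44 (7.51 with them) and that of the secondary granule list 0.150 (0.151 with them). Under the other alternatives the counts of higher and lower genes stayed within 1.5 times, and leaving out 1 library gave 7114 to 7327 genes higher and 7105 to 7320 lower. With the replicate number as a block 7298 genes were higher and 7546 lower, and the block changed no call of a gene named here. Deviations of libraries with the same number correlated weakly (0.061, 0.063 and 0.0048 over 8942 genes). Pairs of different number gave -0.069 to 0.011. With libraries of a population this close to each other, these values cannot decide whether same-numbered libraries share an animal or a batch. Depth limits genes with few counts in BM, such as Cd40lg with 8 and Ifng with 9.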

Other observations

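Receptors that home cells to tissues or hold them there moved with the lymphocyte genes. Of 24 such genes 18 were higher in CD3e T cells, 5 lower and 1 did not pass, with a median log2 fold change of 1.04, and 12 were highest in CD3e T cells among the 11 populations. Ccr8 and Ccr4, chemokine receptors of regulatory and type 2 T cells, were 35.5-fold and 14.96-fold higher, at 6.001 and 5.43 CPM in CD3e T cells. Itgae, the CD103 chain of tissue-resident T cells, was 10.9-fold higher, and Itgb7, which pairs with it, 2.74-fold. S1pr5, which NK cells use to leave the marrow, was 4.15-fold higher. Cxcr4, the receptor that retains cells in the marrow through its ligand Cxcl12, was at 11.99 against 35.4 CPM and lower by 2.97-fold, and Cxcr2 and Ccr1, receptors of neutrophils and monocytes, were lower by 6.69-fold and 3.03-fold.

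Of 18 interferon-stimulated genes 14 were higher, 1 was lower and 3 did not pass, with a median log2 fold change of 0.72. Zbp1, a sensor of nucleic acids, was 4.28-fold higher, Ifit3 3.52-fold and Irf7 2.38-fold, while Rsad2, an antiviral enzyme gene, was at 53.2 against 513 CPM, 9.65-fold lower. Of 16 stromal, bone and endothelial genes 10 were higher, 5 lower and 1 did not pass (median 0.63). Endothelial Kdr, Fabp4 and Emcn were 5.14-fold, 4.95-fold and 3.04-fold higher, at 21.4, 41.5 and 6.53 CPM, and the osteoblast genes Col1a1 and Bglap were 14.5-fold and 20.5-fold lower, while Spp1, which osteoblasts also make, was 1.46-fold higher. Ribosomal protein genes took 5.02% ± 0.041 of the counts in CD3e T cells and 2.99% ± 0.019 in BM, and mitochondrial genes 1.79% ± 0.0064 and 1.54% ± 0.0091 (SD, n = 3).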
